A study of Mus musculus with 4 samples.

Results

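The genes described here encode components of basement membranes, among them the laminins. A list of 30 genes was searched in the 23284 gene symbols counted in each sample, and all 30 were found. They are 5 laminin alpha chains (Lama1 to Lama5), 3 beta chains (Lamb1, Lamb2, Lamb3), the gamma chains Lamc1 and Lamc3, 6 type IV collagen chains (Col4a1 to Col4a6), the nidogens Nid1 and Nid2, the heparan sulfate proteoglycans Hspg2 and Agrn with the related collagens Col15a1 and Col18a1, the Fraser complex genes Fras1, Frem1 and Frem2, and Npnt, Egflam, Pxdn, Ntn4 and Col7a1. They were taken by gene symbol, with earlier results of these data known, and all 30 passed the filter on low counts that left 15645 of the 23284 genes for testing.

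FACS was used to isolate GFP+ cells from the limbs of C57BL/6J mouse embryos at E13.5, and their RNA was sequenced. The GCE allele places eGFP-IRES-CreERt2 in the Osr1 locus, so that GFP marks cells in which the locus is active, and 2 heterozygous embryos (Osr1 GCE/+) were compared with 2 homozygous embryos (Osr1 GCE/GCE) that lack functional Osr1, a zinc finger transcription factor of the Odd-skipped family. Both genotypes carried the knock-in allele, no wild-type cells were included, and GFP in GCE/GCE embryos marks cells that would have expressed Osr1. The comparison addresses which genes differ in limb connective tissue cells when Osr1 is lost, and n is 2 samples per genotype throughout.

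Basement membranes are thin sheets of matrix beneath epithelia and around muscle fibres, vessels and peripheral nerves. A laminin trimer of 1 alpha, 1 beta and 1 gamma chain polymerises on the cell surface and is anchored by integrins and dystroglycan, and a covalently linked network of type IV collagen is tied to it by nidogens and perlecan. In developing limbs, interstitial fibroblasts contribute nidogens, type IV collagen and several laminin chains to the sheet that encloses each myofibre, while other chains are made by the epithelium or by the fibre itself.

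Several of these genes lie beside each other in the genome, and the start region that Col4a1 and Col4a2 share is shown because these are the main chains of the collagen network described below. Col4a1 (chromosome 8, 11198423 to 11312826, minus strand, GRCm38) and Col4a2 (chromosome 8, 11312805 to 11449287, plus strand) are arranged head to head, and their annotated first exons overlap by 22 bases. The overlap, read from RefSeq promoter windows of GRCm38.p6 on the Col4a2 strand at chr8:11312805-11312826, holds a GC box, the letters GGGCGG, in capitals:
Col4a1 and Col4a2: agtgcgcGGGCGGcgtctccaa
The Col4a3 and Col4a4 starts on chromosome 1 were 71 bases apart, and those of Col4a5 and Col4a6 on the X chromosome 1308 bases apart. A RefSeq promoter window, from 250 bases before to 50 bases after a start, was found for 22 of the 30 genes. The letters GGGCGG occurred on either strand in 18 of the 28 windows of these genes, which belong to 16 genes, and in 35.7% of all 32851 windows. The motif ACAGTAGC, known for Odd-skipped family proteins, occurred on neither strand in any of these 28 windows and in 0.898% of all windows, which says only that these letters are not in these stretches.

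Lama2 is the gene that passed the test by edgeR, as described below. The 250 bases before its RefSeq start, on the minus strand at chr10:27616943-27617192 of GRCm38.p6, overlap no GENCODE exon and hold no GC box. The 50 bases after the start hold 1. In GENCODE the gene spans chromosome 10, 26980036 to 27619758, so the 250 bases lie within the annotated gene and not upstream of it. They are shown for the sequence context of that gene:
Lama2: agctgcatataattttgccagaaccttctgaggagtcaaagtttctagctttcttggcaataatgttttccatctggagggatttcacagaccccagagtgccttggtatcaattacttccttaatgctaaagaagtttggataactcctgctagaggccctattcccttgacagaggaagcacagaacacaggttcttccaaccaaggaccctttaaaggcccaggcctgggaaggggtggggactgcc
Their GC content was 47.2%, against 72.7% in the bases shared by Col4a1 and Col4a2.

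Total counts per sample ranged from 52121596 to 61402140, so that 3 counts, taken as the detection floor, corresponded to 0.0490 to 0.0574 CPM (counts per 1000000 counts of a sample, after TMM scaling of the totals). Such floors cover counting error only. Osr1 itself was at 81.9 and 79.1 CPM in heterozygous cells and at 11.9 and 13.9 CPM in homozygous cells, and fell by 2.64 on the log2 scale (adjusted p = 5.94e-05, edgeR's quasi-likelihood test). The label of mesenchymal cells was matched by 833 to 977 CPM of Pdgfra, a receptor of connective tissue progenitors. The 8 epithelial markers summed to 23.5 to 29.5 CPM per sample, among them Krt14, a keratin of basal epithelium, at 0.735 to 1.66 CPM. Markers of other cells were present too, with sums of 150 to 192 CPM for 8 myogenic and 169 to 501 CPM for 6 erythroid markers. The 9 macrophage markers summed to 289 and 294 CPM in heterozygous cells and to 183 and 128 CPM in homozygous cells, the 8 cartilage markers to 697 and 1086 CPM against 1501 and 1653 CPM, and the 3 tendon markers to 50.8 and 38.1 CPM against 112 and 117 CPM. In bulk samples, fewer cells of a type and less RNA per cell cannot be told apart, and the part of these cells in the results below was not tested.

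In heterozygous cells, the levels of the basement membrane genes ran from near the floor to those of Lamb1. Levels between genes were compared as CPM per kilobase of exon. Lamb1, the beta 1 chain shared by most mesenchymal laminins, was highest, at 98.5 and 102 CPM per kb. Pxdn, the peroxidase that cross-links type IV collagen, followed at 70.9 and 83.6, Nid2 at 77.5 and 75.4, and Nid1 at 71.7 and 72.9 CPM per kb. The range of Pxdn overlapped that of each nidogen, so its place among them is not resolved. Col4a1 stood at 68.0 and 65.2 CPM per kb, Agrn at 52.02 and 58.4, Lama4 at 53.8 and 53.7, Col4a2 at 46.6 and 42.9, and Lamc1 at 34.0 and 35.7. The lowest were Col4a3 and Col4a4, chains of the mature kidney glomerulus, with group means of 0.0206 and 0.0460 CPM per kb.

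**Figure D1:**
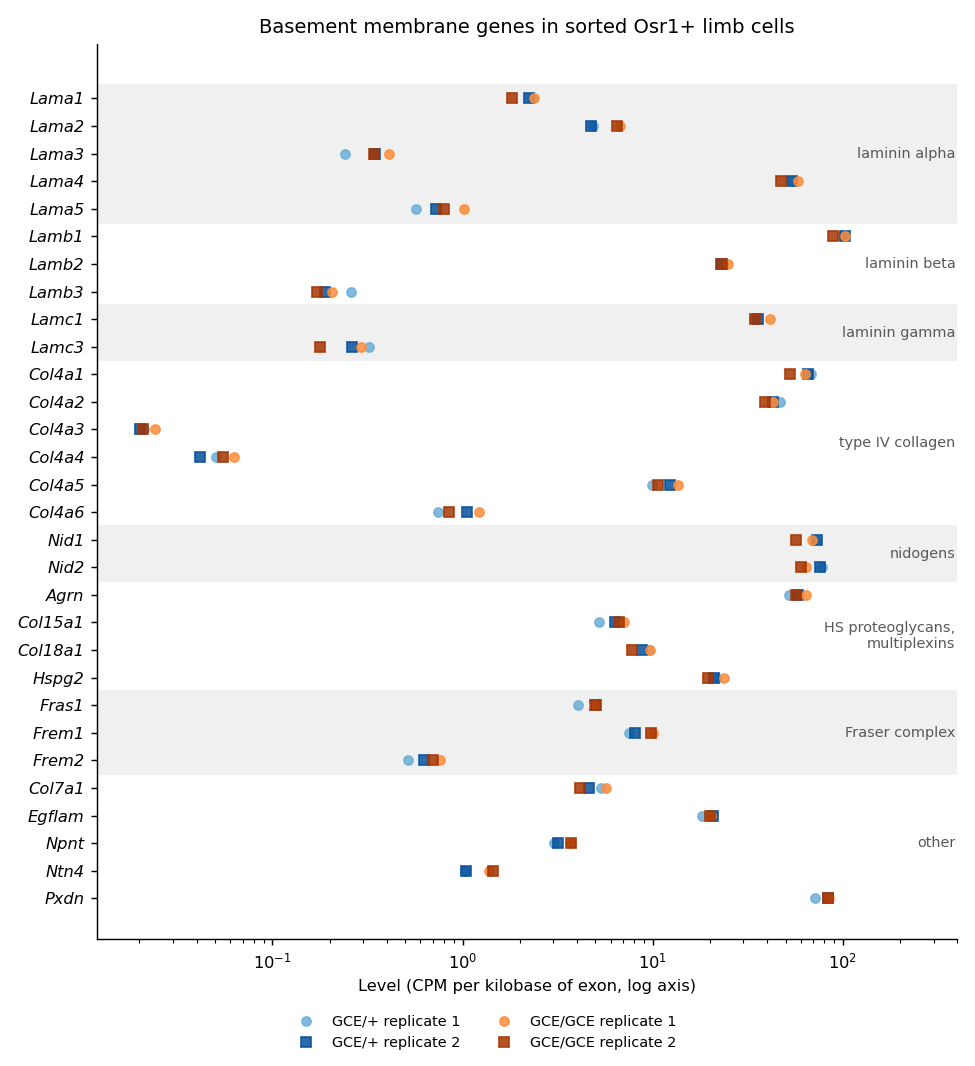
Levels of the 30 basement membrane genes in each of the 4 samples, in CPM per kilobase of exon on a log axis, grouped by role. Lamb1 is highest at 88.6 to 103 CPM per kb, and the 4 points of most genes lie close together on this axis, where Lama2 spans 4.73 to 6.72 CPM per kb.

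Of the 30 genes, 1 passed an adjusted p under 0.1 in homozygous against heterozygous cells, Lama2, which was higher. That is 3.33% of the genes, where 1.82% of all 15645 tested genes passed, 0.895% being higher and 0.927% lower. An unadjusted p under 0.05 was reached by 6 of the 30, and by 10.5% of all tested genes. The fold changes were positive for 19 genes and negative for 11, with a median of 0.12 on the log2 scale against 0.0033 for all tested genes. In 9 of the 30 (30.0%) both homozygous samples were above both heterozygous samples in CPM, which was so for 19.2% of all genes. In 4 (13.3%) they were below, namely Nid1, Nid2, Col4a1 and Col4a2, which was so for 19.1% of all genes, and in 17 the groups overlapped. An exact permutation test of a single gene with 2 against 2 samples cannot go below p = 0.33, so all p-values come from the model fitted across all genes.

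**Figure D2:**
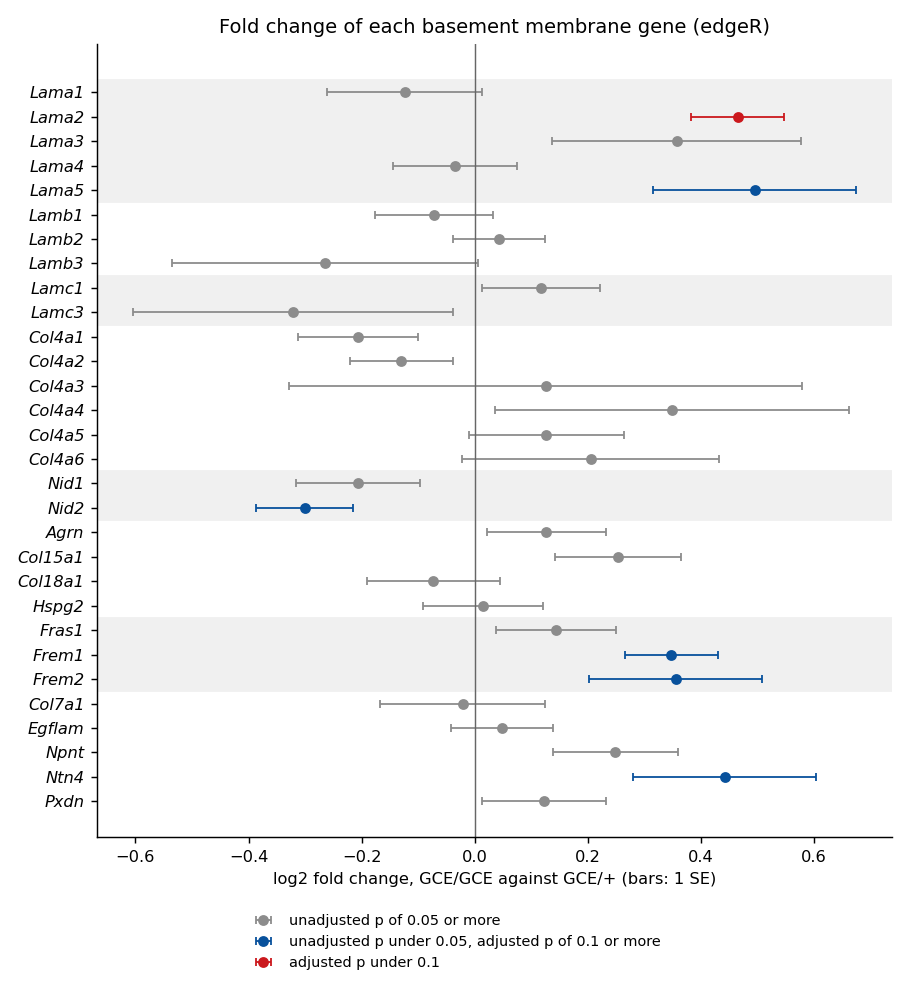
The log2 fold change of each basement membrane gene, GCE/GCE against GCE/+, with 1 standard error on each side from edgeR's quasi-likelihood fit; red marks an adjusted p under 0.1 and blue an unadjusted p under 0.05 only. Lama5 lies farthest to the right at 0.50 and Lamc3 farthest to the left at -0.32, and Lama2 at 0.47 is the red point.

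Lama2 rose by edgeR. It encodes the alpha 2 chain of laminin-211, the main laminin around mature muscle fibres and Schwann cells, whose loss causes congenital muscular dystrophy. Its level was 47.6 and 46.4 CPM in heterozygous cells and 65.9 and 63.9 CPM in homozygous cells. The replicates of each genotype lay within a few percent of each other and the groups were well apart. The log2 fold change was 0.47 ± 0.08 (SE; n = 2 per genotype; adjusted p = 0.0491, edgeR's quasi-likelihood test), or 1.38-fold. The call was lost when each sample's trend on transcript length was taken out (0.33; adjusted p = 0.180 by edgeR) and without the filter on low counts (0.46; adjusted p = 0.104 by edgeR). The beta and gamma chains of the same trimer, Lamb1 and Lamc1, did not pass the test.

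Lama3 and Lamb3, laminin chains of stratified epithelia, were at low levels, and neither passed the test. Lama3, the alpha 3 chain, was at 2.59 and 3.71 CPM in heterozygous cells and at 4.39 and 3.66 CPM in homozygous cells, so that the groups overlapped (log2 fold change 0.36 ± 0.22 SE; adjusted p = 0.696 by edgeR). Lamb3, the beta 3 chain, was at 1.33 and 0.975 CPM against 1.05 and 0.882 CPM (-0.26; adjusted p = 0.871 by edgeR). Col7a1, the collagen of the anchoring fibrils beneath the epidermis, was at 49.5 and 42.9 CPM against 52.5 and 38.5 CPM, with overlapping groups. The 8 epithelial markers summed to 23.5 and 26.9 CPM in heterozygous cells and to 29.5 and 27.9 CPM in homozygous cells. Of these 8, none passed the test by edgeR and 3 (37.5%, against 10.5% of all tested genes) had an unadjusted p under 0.05. DESeq2 called 1, the simple epithelial keratin Krt18, which was higher (log2 fold change 0.56; adjusted p = 0.0374 by DESeq2) at 8.84 and 9.47 against 14.3 and 12.7 CPM. Of the 8 markers, 3 were higher in both homozygous samples than in both heterozygous samples and 2 were lower. Over all genes, 19.2% were higher in this way and 19.1% lower. The 2 lower markers included the basal keratin Krt14, at 1.20 and 1.66 against 1.02 and 0.735 CPM. The part of epithelial cells in these values was not tested.

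The remaining alpha chains were read against Lama4, the alpha 4 chain of mesenchymal and endothelial laminins. Lama4 was the most abundant of the 5, at 325 and 325 CPM in heterozygous cells and at 350 and 284 CPM in homozygous cells (log2 fold change -0.04 ± 0.11 SE; adjusted p = 0.970 by edgeR). Its homozygous samples lay on either side of the heterozygous samples. Lama5, the alpha 5 chain of epithelial and vascular basement membranes, was at 6.45 and 8.30 CPM against 11.6 and 9.15 CPM. Those groups did not overlap, but the difference did not pass the test (0.50 ± 0.18 SE; adjusted p = 0.339 by edgeR). Lama1, the alpha 1 chain of early embryonic laminin, was at 22.0 and 21.4 CPM against 22.5 and 17.3 CPM.

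Neither of the common beta and gamma chains passed the test. Lamb1 was at 576 and 598 CPM in heterozygous cells and at 599 and 518 CPM in homozygous cells (log2 fold change -0.07 ± 0.10 SE; adjusted p = 0.930 by edgeR). Lamc1, the gamma 1 chain of most laminins, was at 259 and 272 CPM against 314 and 262 CPM (0.12 ± 0.10 SE; adjusted p = 0.841 by edgeR). The approximate 95% intervals ran from -0.28 to 0.13 for Lamb1 and from -0.09 to 0.32 for Lamc1, and in both genes the homozygous samples spread wider than the distance between the group means. Lamb2, the beta 2 chain of synaptic and vascular laminins, stayed between 129 and 140 CPM in the 4 samples, and Lamc3 between 1.05 and 1.89 CPM.

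**Figure D3:**
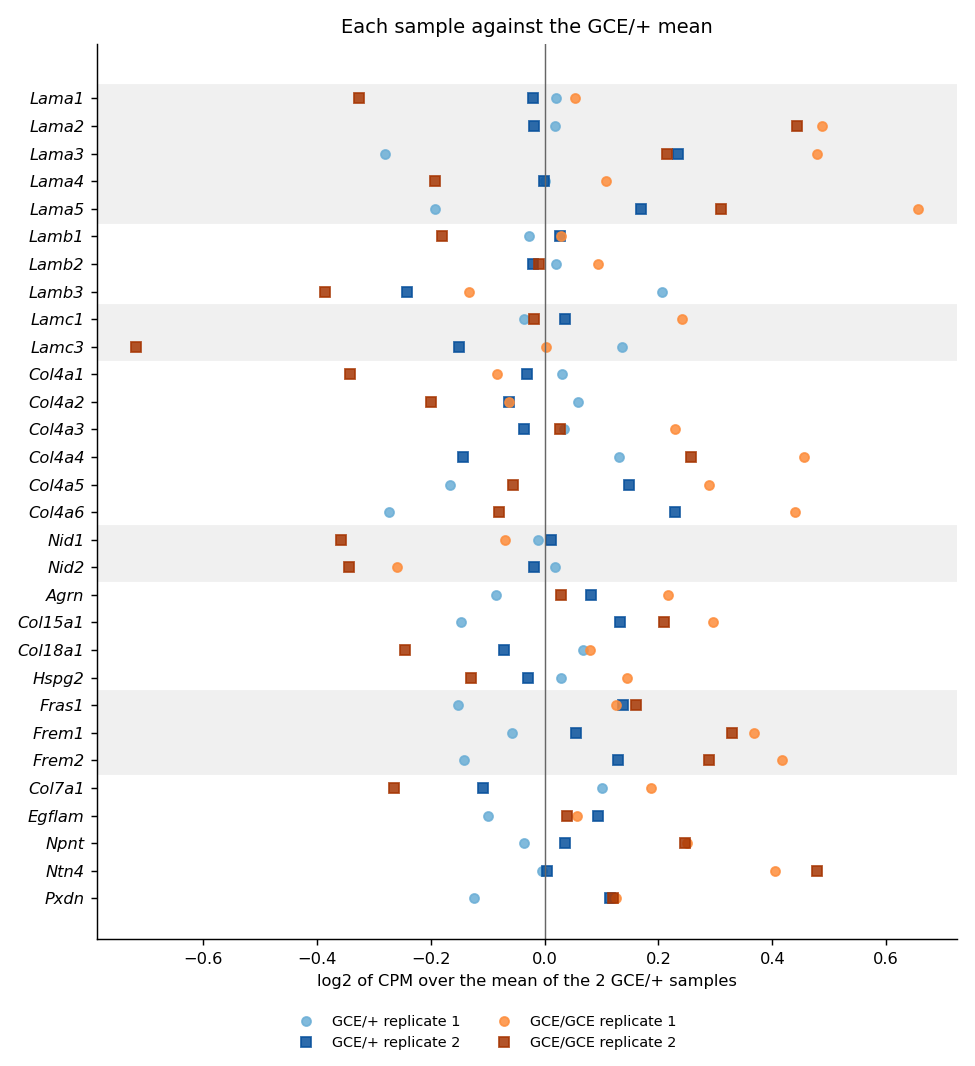
Each of the 4 samples as the log2 of its CPM over the mean of both GCE/+ samples, for the 30 genes grouped by role as in the plot of levels. Both GCE/GCE points of Lama2 lie to the right of all GCE/+ points, those of Nid2 lie to the left, and GCE/GCE replicate 2 lies to the left of replicate 1 in 28 of 30 genes.

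The composition of the laminin pool was calculated as each chain's share of its family's summed CPM per kb, a description without a test of its own. Lama4 made up 87.1% and 87.0% of the alpha chains in heterozygous cells and 84.6% and 83.2% in homozygous cells. Lama2 made up 7.86% and 7.66%, and 9.82% and 11.5%. The ratio of Lama2 to Lama4 was 0.0902 and 0.0880 in heterozygous cells and 0.116 and 0.138 in homozygous cells. Lamb1 held 80.5% and 81.6% of the beta chains in heterozygous cells and 80.4% and 79.2% in homozygous cells. Those groups were narrowly apart. Alpha 4 and beta 1 were thus the main alpha and beta chains at both genotypes, and the shares of the alpha chains differed by at most a few percentage points.

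**Figure D4:**
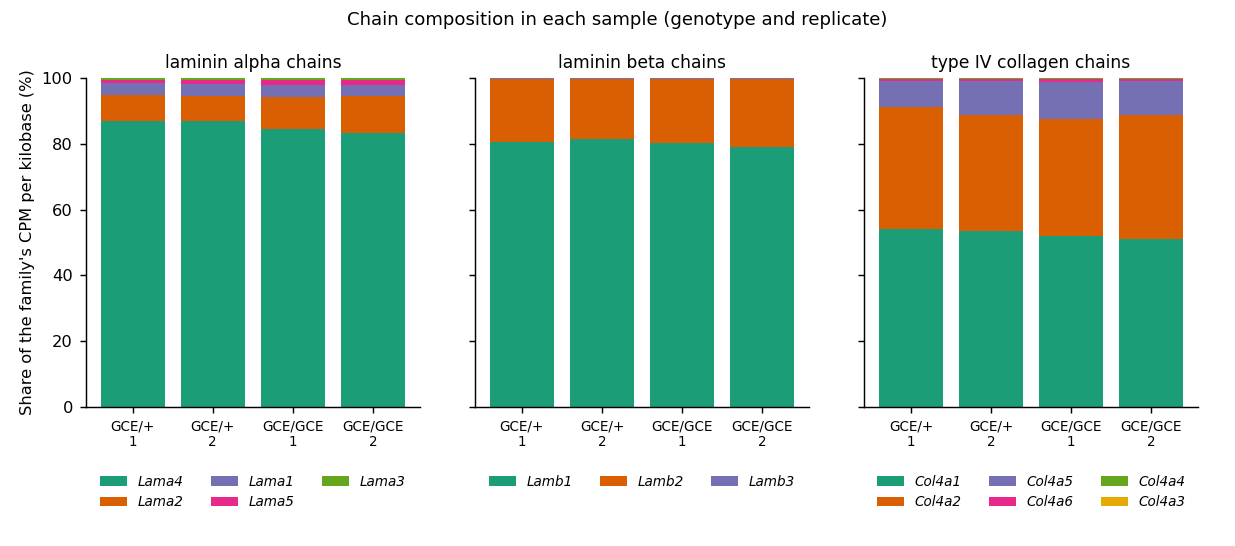
Stacked bars give the share of each chain in the summed CPM per kilobase of its family, in percent, for laminin alpha, laminin beta and type IV collagen chains in each of the 4 samples. Lama4 and Lamb1 fill most of the laminin bars, the Lama2 segment is 9.82% and 11.5% in the GCE/GCE bars, and Col4a1 with Col4a2 fill most of the collagen bars.

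Both nidogens were lower in homozygous cells without passing the threshold by edgeR. Nidogens bridge the laminin gamma 1 chain to type IV collagen. Nid2 was at 378 and 368 CPM in heterozygous cells and at 311 and 294 CPM in homozygous cells, with both homozygous samples below both heterozygous samples (log2 fold change -0.30 ± 0.09 SE; unadjusted p = 0.00716, adjusted p = 0.188 by edgeR). DESeq2, the tool of the study's methods, gave Nid2 an adjusted p of 0.0676, past the threshold. The paper lists Nid2 among the downregulated matrix genes. It also reports lower Nid2 by RT-qPCR in embryos other than those sequenced, at this stage and at an earlier one. The 3′ end of Nid2 overlaps that of Rtraf on the other strand by 437 exon bases, and the reads carry no strand, so reads there could not be assigned to either gene. Nid1 was at 437 and 444 CPM against 420 and 343 CPM (-0.21; adjusted p = 0.620 by edgeR). The mean of Nid1 in homozygous cells owed most of its difference to replicate 2.

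The type IV collagen network was dominated by the Col4a1 and Col4a2 chains, which assemble as 2 alpha 1 chains and 1 alpha 2 chain in nearly all basement membranes. Col4a1 was at 450 and 431 CPM in heterozygous cells and at 416 and 348 CPM in homozygous cells, without overlap (log2 fold change -0.21 ± 0.11 SE; adjusted p = 0.602 by edgeR). Col4a2 was at 301 and 277 CPM against 276 and 251 CPM (-0.13; adjusted p = 0.762 by edgeR), and its nearest samples of either genotype were almost level, at 276.6 and 276.5 CPM. Per kb, Col4a1 was 1.46 and 1.52 times Col4a2 in heterozygous cells and 1.47 and 1.35 times in homozygous cells, so the ratio of the 2 genes with the shared start shown above overlapped between the genotypes. Their shares of the family were 51.0% to 54.3% and 35.3% to 37.8%.

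None of the minor type IV chains passed the test. Col4a5, on the X chromosome and a chain of smooth muscle and kidney networks, was at 65.0 and 80.7 CPM in heterozygous cells and at 89.0 and 70.1 CPM in homozygous cells, and its neighbour Col4a6 at 4.94 and 6.999 CPM against 8.10 and 5.65 CPM. In both, GCE/GCE replicate 1 was highest and GCE/+ replicate 1 lowest. GCE/GCE replicate 1 was also the only sample with abundant Xist, the RNA that coats an inactive X chromosome, at 1142 CPM against at most 2.63 CPM in the other samples, and the part of embryo sex in these values was not tested. Col4a3, at 0.172 to 0.207 CPM, and Col4a4, at 0.421 to 0.637 CPM, were above the floor of 3 counts. The groups of Col4a4 did not overlap, but with standard errors of 0.31 and 0.45 on the log2 scale for Col4a4 and Col4a3, differences of the sizes seen in the other chains were not detectable at this depth.

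Of the proteoglycans and multiplexins, Hspg2 and Agrn were abundant, and none of the 4 genes passed the test. Hspg2 encodes perlecan, the main heparan sulfate proteoglycan of basement membranes, and was at 311 and 298 CPM in heterozygous cells and at 337 and 278 CPM in homozygous cells. Agrn encodes agrin, which binds laminin and dystroglycan and organises the neuromuscular synapse, and was at 406 and 455 CPM against 500 and 439 CPM (log2 fold change 0.13 ± 0.11 SE; adjusted p = 0.822 by edgeR). Col18a1, the source of endostatin, was at 65.3 and 59.3 CPM against 65.9 and 52.6 CPM. The groups of these 3 genes overlapped. Only Col15a1, a collagen at the muscle and capillary surface, had groups that did not overlap, at 31.5 and 38.2 CPM against 42.7 and 40.3 CPM (log2 fold change 0.25 ± 0.11 SE; adjusted p = 0.482 by edgeR).

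The Fraser complex joins epidermis to dermis during development. Its 3 members all had positive fold changes, from 0.14 to 0.36 on the log2 scale, without passing the threshold by edgeR. Positive fold changes were found for 7969 of all 15645 tested genes. Frem1, the fibroblast-derived member, was at 73.1 and 79.0 CPM in heterozygous cells and at 98.1 and 95.5 CPM in homozygous cells, with the groups clearly apart (0.35 ± 0.08 SE; unadjusted p = 0.00267, adjusted p = 0.117 by edgeR). DESeq2 gave Frem1 an adjusted p of 0.0485. Frem2, mostly made by epithelium, was at 6.39 and 7.71 CPM against 9.41 and 8.61 CPM (0.36 ± 0.15 SE; adjusted p = 0.469 by edgeR). Fras1 was at 64.4 and 78.7 CPM against 78.0 and 80.0 CPM, and its groups overlapped. When each sample's trend on transcript length was taken out, the 3 no longer shared a direction. Frem1 was then at 0.22 (adjusted p = 0.219 by edgeR), Frem2 at 0.19 and Fras1 at -0.05.

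Of the other 5 genes, Ntn4 had the largest fold change. Ntn4 encodes netrin-4, a laminin-binding protein that interrupts laminin polymers, and was at 3.76 and 3.79 CPM in heterozygous cells and at 4.996 and 5.26 CPM in homozygous cells. The replicates were close and the groups apart, but the difference did not pass the test (log2 fold change 0.44 ± 0.16 SE; unadjusted p = 0.0245, adjusted p = 0.344 by edgeR). Npnt, the nephronectin ligand of integrin alpha 8 beta 1, was at 14.6 and 15.3 CPM against 17.8 and 17.8 CPM (0.25; adjusted p = 0.482 by edgeR). Pxdn was at 593 and 700 CPM against 705 and 702 CPM (0.12 ± 0.11 SE; adjusted p = 0.842 by edgeR), where GCE/+ replicate 1 alone stood lower. Egflam, which encodes the dystroglycan ligand pikachurin, was at 87.7 and 100 CPM against 97.8 and 96.5 CPM. With DESeq2, which gave 3.25% of 15439 genes an adjusted p under 0.1, 3 of the 30 genes passed, namely Lama2, Frem1 and Nid2, the last of them lower.

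The genes were also described by level. The 10 genes whose mean reached 200 CPM, which include the common laminin chains, the nidogens and Col4a1 and Col4a2, had 4 positive and 6 negative fold changes with a median of -0.05 on the log2 scale. The 10 genes between 20 and 200 CPM had 7 positive and 3 negative ones with a median of 0.09, and the 10 below 20 CPM had 8 positive and 2 negative ones with a median of 0.30. These are descriptions of the genes listed, given without the same bins over all tested genes, and were not tested.

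A large part of the spread in the abundant genes came from the GCE/GCE replicates. GCE/GCE replicate 2 was below replicate 1 in 28 of the 30 genes (93.3%), by a median of 0.20 on the log2 scale of CPM, whereas this was so for 49.8% of all tested genes. All 10 genes at 200 CPM or more were lower in replicate 2. The GCE/+ replicates differed in no common direction, with replicate 2 lower in 14 of 30 genes and a median difference of 0.02. Without GCE/GCE replicate 1 the median fold change of the 30 genes was -0.02 on the log2 scale, and without GCE/GCE replicate 2 it was 0.17, so its sign rests on which homozygous sample is kept. Lama2 was past the threshold without any 1 of the 4 samples, at 0.44 to 0.49 on the log2 scale. Frem1 (0.41) and Col15a1 (0.40) also passed without GCE/+ replicate 2, and Lama5 (0.66) without GCE/GCE replicate 2.

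Basement membrane genes have long transcripts, and fold changes across all genes followed transcript length. Spearman's rho between the log2 fold change and exon length was 0.258 across 15471 genes, which are not independent replicates. The median fold change was 0.08 on the log2 scale in the longest 20% of genes and -0.04 in the shortest 20%, and 25 of the 30 genes were among the longest 20%, with a median exon length of 6720 bases against 3310 for all tested genes. When each sample's trend on length was taken out, the median of the 30 genes was 0.02, and Lama2, with 9812 exon bases, no longer passed, as given above. Nid2 passed at -0.33 (adjusted p = 0.0927 by edgeR).

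**Figure D5:**
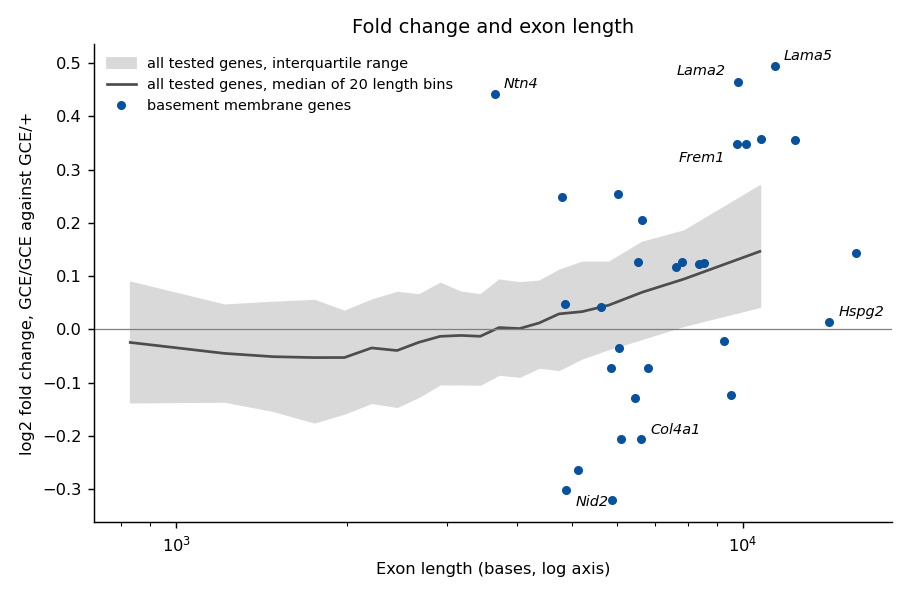
The log2 fold change, GCE/GCE against GCE/+, by exon length in bases on a log axis: the line and band give the median and interquartile range of all tested genes in 20 length bins, and points are the 30 basement membrane genes. The line goes from -0.02 in the shortest bin to 0.15 in the longest; Lama2 at 0.47 lies above it and Nid2 at -0.30 below it.

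The rest of the pathway was read from 4 lists of genes that are not among the 30. Of 12 tested genes of other basement membrane proteins, 1 (8.33%) was higher and none lower by edgeR, where 1.82% of all genes passed in either direction. That gene was Hmcn1, which encodes hemicentin-1, a giant protein of tissue linkages, at 106 and 119 CPM in heterozygous cells and at 162 and 176 CPM in homozygous cells. This was a log2 difference of 0.58 ± 0.09 (SE), with an adjusted p of 0.0337 by edgeR. Hmcn1 has 17908 exon bases, and with length taken out its log2 fold change was 0.37 (adjusted p = 0.0885 by edgeR). DESeq2 called Hmcn1 and also Ntn1, which encodes the guidance protein netrin-1. Ntn1 was at 186 and 210 CPM against 160 and 158 CPM (log2 fold change -0.32 ± 0.09 SE; adjusted p = 0.180 by edgeR and 0.0882 by DESeq2), and with length taken out it passed by edgeR (-0.37; adjusted p = 0.0519). The median over the 12 was -0.19, against 0.0033 for all genes.

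None of 15 receptor genes passed by edgeR, although 3 had an unadjusted p under 0.05, and DESeq2 called none of them. The lowest p belonged to Itga7, the laminin-binding integrin alpha 7 of muscle, at 4.19 and 3.71 CPM against 2.91 and 2.27 CPM (-0.61; adjusted p = 0.267 by edgeR), and the next to Itga1, a collagen-binding integrin, at 14.0 and 14.2 CPM against 18.7 and 16.9 CPM (0.33; adjusted p = 0.305 by edgeR). Dag1, which encodes the laminin receptor dystroglycan, was at 127 and 140 CPM against 153 and 143 CPM. Itgb1, the common integrin beta 1 chain, was at 692 and 695 CPM against 660 and 673 CPM (log2 fold change -0.06, adjusted p = 0.943 by edgeR). Of 10 genes for the glycosylation that lets dystroglycan bind laminin, none passed with either tool and none had an unadjusted p under 0.05. The lowest p belonged to Gyltl1b, with a log2 fold change of 0.28.

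Among 8 tested genes for folding and secretion of type IV collagen, none passed by edgeR. An unadjusted p under 0.05 was reached by 1 (12.5%, against 10.5% of all tested genes). That gene, Plod2, a lysyl hydroxylase, was at 141 and 138 CPM against 181 and 172 CPM (log2 fold change 0.34; adjusted p = 0.111 by edgeR), and was the 1 gene of the list called by DESeq2. P4ha2, a prolyl hydroxylase, had the next lowest p, with a log2 fold change of 0.17, and its groups did not overlap. Plod2 and P4ha2 were the 2 of these 8 genes that were higher in both homozygous samples. Another 3 were lower in both, namely Serpinh1 (log2 fold change -0.16), Plod3 (-0.15) and P4hb (-0.11). Over all genes, 19.2% were higher in both homozygous samples and 19.1% lower. The Mia3 symbol was listed at 0 counts in every sample.

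Markers of cells that make or border basement membranes were compared beside these values. The 9 endothelial markers summed to 126 and 102 CPM in heterozygous cells and to 101 and 83.7 CPM in homozygous cells, with 5 lower in both homozygous samples and 1 higher, where 19.1% and 19.2% of all genes were so. None passed by edgeR, although 5 (55.6%, against 10.5% of all tested genes) had an unadjusted p under 0.05. DESeq2 called Tie1, an endothelial receptor, which was lower (log2 fold change -0.63, adjusted p = 0.0852 by DESeq2). Of the genes that vessels also make, Col4a1, Col4a2 and both nidogens were lower in both homozygous samples, Lama5 was higher, and the groups of Lama4, Lamb2 and Hspg2 overlapped. The 8 mural cell markers summed to 568 and 590 CPM against 614 and 551 CPM, the 8 myogenic markers to 150 and 168 CPM against 192 and 162 CPM, and the 5 Schwann cell markers to 19.2 and 21.9 CPM against 23.1 and 18.8 CPM. The 6 erythroid markers summed to 501 and 169 CPM against 332 and 301 CPM. The 9 fibroblast markers summed to 21995 and 19925 CPM in heterozygous cells and to 19141 and 16698 CPM in homozygous cells. Of these, 5 (55.6%, against 19.1% of all genes), Osr1 included, were lower in both homozygous samples and 0 were higher. By edgeR only Osr1 passed, and 4 (44.4%, against 10.5% of all tested genes) had an unadjusted p under 0.05. DESeq2 called 4, where it called 3.25% of all genes. These were Osr1 and the matrix genes Dcn, Col3a1 and Lum, all lower. The part of these cell types in the values of the basement membrane genes was not tested.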

How the data were processed

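RNA-Seq of Osr1+ cells from 4 embryos was analysed, 2 per genotype, with genotype and replicate number taken from the sample labels. Paired reads of 50 bases were aligned by the authors (TopHat2, mm9, UCSC gene model), and HTSeq assigned fragments to genes under its intersection-strict rule; tool versions are not given in the sources used here. The deposited values are raw counts per gene symbol. CPM were computed from TMM-scaled total counts. Genes were filtered with filterByExpr, normalized by TMM and tested with the quasi-likelihood test of edgeR 4.0.16 in R 4.3.3, two-sided, with Benjamini-Hochberg adjustment and a threshold of 0.1. The residual degrees of freedom were 2. DESeq2 1.42.0 was an alternative. Intervals are the fold change ± 1.96 SE, a normal multiplier, so with 2 samples per genotype they are narrower than 95% intervals. Symbols were matched to GRCm38 annotation (98.0%) for coordinates and exon lengths, which may differ from the mm9 models counted. Noncoding genes on the other strand that share exon bases with 9 of the 30 genes are not among the counted symbols. The genes, lists and tests were chosen with earlier results of these data known. All 30 genes are named, with errors and adjusted p for those past a threshold, the highest per length of the laminin alpha, beta and gamma and type IV collagen chains, and those with the 5 largest fold changes. Ntn1, Krt18, Tie1, Dcn, Col3a1 and Lum were named after their values were seen. Some genes of these lists are not reported here. Figures were drawn with matplotlib 3.10.9.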

Additional observations from a re-analysis of the deposited data

How the results depend on the processing

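Osr1 was past the threshold in all 14 alternatives, with log2 fold changes from -2.76 to -2.54. Lama2 was past it in 11 of 14 and was lost without the filter on low counts (0.46, adjusted p = 0.104 by edgeR) and with length offsets, alone or with the replicate block. Over all members and alternatives, 386 of 419 fold changes had the direction and side of the threshold given in the report, 3 lost the threshold, 7 passed it and 23 changed sign.

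DESeq2 called 502 genes in all, 3 of the 30 (2 higher, 1 lower) and 3 genes of the pathway lists. Without the filter, 127 genes and 0 of the 30 (0 higher) passed by edgeR, where more genes were tested. With an adjusted p under 0.05, 130 genes passed. Length offsets gave 0 of the 30 higher, 1 lower and 3 pathway genes, and with the replicate block added 0, 1 and 2. The signs of Lamb2 (-0.007 and -0.0059 with the block), Hspg2 (-0.1812 and -0.1792) and Fras1 (-0.0529 and -0.053) turned negative under these offsets, and that of Hspg2 under upper quartile normalization (-0.0022). Except where the text says otherwise, the cause was not tested.

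The correlation of same-numbered samples' deviations from their group means over 11180 genes was -0.013. With 2 samples per genotype this is a single value, and a shared litter, day or batch was not tested. As a block the replicate numbers gave 290 genes and the same count of 1 of the 30.

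Without each sample in turn, the count of all genes ranged from 199 to 961 (961 without GCE/+ replicate 2, 748 without GCE/GCE replicate 1), of the 30 genes called from 1 to 3, those higher from 1 to 3, and pathway genes from 1 to 2. The 30 genes with separate groups ranged from 16 to 26, those higher from 9 to 22 and those lower from 4 to 12, where fewer samples make separation more frequent. The median fold change ranged from -0.0213 to 0.1652. Single genes that changed sign were Lama1 (-0.3325 to 0.0536), Lama4 (-0.1993 to 0.1068), Lamb1 (-0.1874 to 0.029), Lamb2 (-0.0171 to 0.0931), Lamc1 (-0.0256 to 0.2411), Hspg2 (-0.1353 to 0.1448), Col4a5 (-0.0616 to 0.2921), Col4a6 (-0.0808 to 0.4745), Col18a1 (-0.251 to 0.0796), Fras1 (-0.0001 to 0.2951), Egflam (-0.0517 to 0.148) and Col7a1 (-0.2705 to 0.1857). A lone sample in a group was assumed to vary like the other group.

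With 2 samples per genotype, Nid2 and Frem1 passed by DESeq2 but not by edgeR, and in the lowest genes, Col4a3 and Col4a4, differences of the sizes seen in the other chains were not detectable at this depth.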
